A study of Mus musculus with 6 samples.

Results

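The comparison set 2 libraries from mice given 2% dextran sulphate sodium (DSS), a charged sugar polymer that damages the lining of the colon when mice drink it, against 2 libraries from mice given water. All 4 were RNA of the distal colon, taken on day 7 from wild-type C57BL/6 males aged 7 weeks. They are 4 of the 6 libraries of the study. All 20533 genes of the table entered, and 20287 had a mean value of at least 1 and were tested. The deposited value of a gene is its read count divided by 1 factor per library, called normalised read count here. Nothing in the labels says that each library came from its own mouse, so the p-values measure only the spread between these libraries.

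The distal colon is lined by a single layer of epithelium whose surface cells absorb salt, water and calcium, oxidise short-chain fatty acids and carry a brush border of actin-filled microvilli. A small set of transcription factors of the HNF, CDX and nuclear receptor families keeps that epithelium in its state. Beneath it lie fibroblasts, vessels, nerves and immune cells, embedded in a matrix of laminins, collagens and proteoglycans, which DSS exposes when it breaks the lining. The question here is which gene families and pathways moved in the injured tissue, beyond the usual markers of inflammation.

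In limma with an intensity trend and Benjamini-Hochberg adjustment, 1612 genes (7.95% of those tested) were higher in DSS and 1477 (7.28%) were lower at an adjusted p below 0.05. These shares are the background for every list below. Both DSS libraries lay over both water libraries in 34.0% of all genes tested and under them in 28.5%. Genes named by the rule given under processing had to pass without overlap between the groups, so a lack of overlap in them adds no support. The median log2 fold change over all genes tested was 0.10. With scaling by library size only, that median was 0.33 and the calls were 2207 higher and 897 lower, so differences below are best read against the median of all genes. No gene passed in a limma fit without DSS replicate 1 or without DSS replicate 2, where 6247 and 4792 genes had an unadjusted p under 0.05. None passed with the reads thinned to the shallowest library or with all 6 libraries in 1 fit (6059 and 4662 genes at that p), and the fits without 1 water library called 271 or 264 genes higher and 56 or 68 lower. In an exact permutation test of a single gene, 2 against 2 libraries cannot give a p below 0.333.

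The library totals were 8936826 and 3741494 reads in water, against 21481594 and 15212981 in DSS, and 1 read was worth 0.960, 2.27, 0.335 and 0.479 in that order. The median SD of a gene's log2 value was 0.21 in water and 0.29 in DSS. Among genes with a group mean of at least 20, 278 were more than 4-fold higher in DSS replicate 2 than in DSS replicate 1 and 71 the other way, against 27 and 19 in water. Part of that gap was made of genes of other tissues. The 15 stratified squamous markers summed to 59.5 and 539 in water, 213 in DSS replicate 1 and 42094 in DSS replicate 2, and the 12 skeletal muscle markers to 733, 346, 141 and 3600.

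Markers checked the label of the tissue. All 13 general epithelium markers were detected in every library, and their sum fell from 190228 and 196752 in water to 79176 and 54887 in DSS, with 11 of 13 lower. Their median stood 1.14 and 1.57 below water on the log2 scale in the DSS libraries. In whole tissue, fewer cells of a type and less RNA per cell cannot be told apart, and this applies to every epithelial gene below. Neutrophil markers (6 of 6 higher), B and plasma cell markers (6 of 6), endothelial markers (5 of 5) and fibroblast markers (4 of 6) moved the other way, and smooth muscle markers had 1 of 10 lower. The mesothelial markers, of the outer lining of the gut wall, summed to 8.64 and 4.55 in water, compared with 227 and 259 in DSS, with 3 of 5 at 0 in water.

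**Figure D1:**
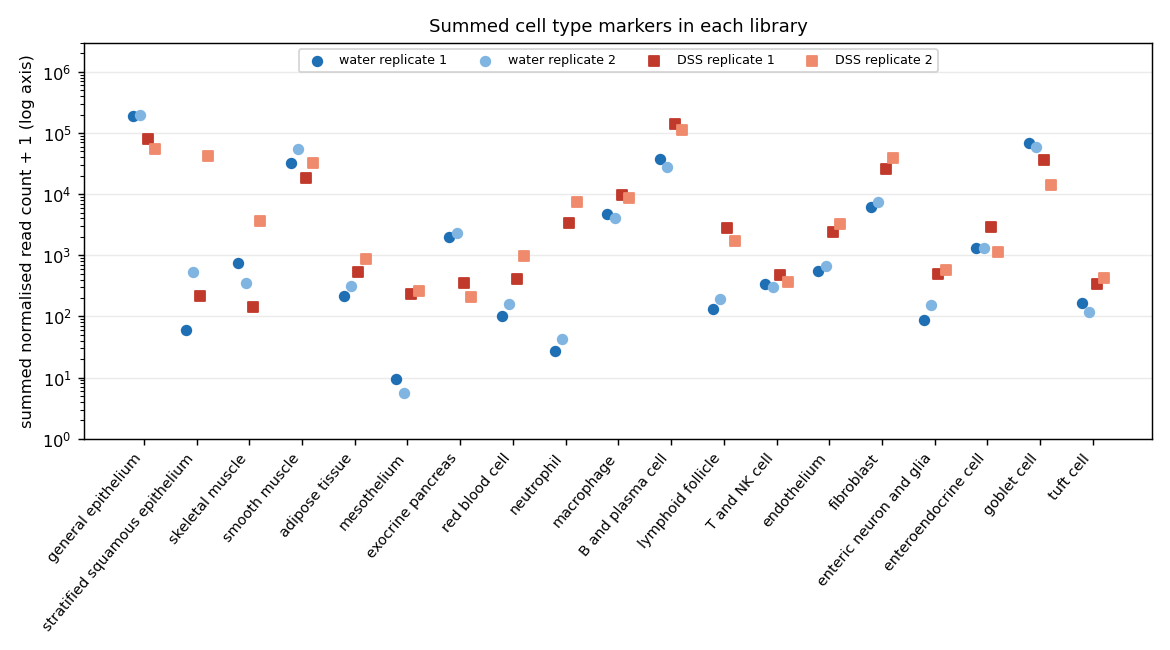
Summed normalised read count, plus 1, of each cell type's markers (log axis) in the 4 libraries, with 1 point for each library. General epithelium lies lower in both DSS libraries, neutrophil, endothelial and fibroblast sums lie higher, and stratified squamous genes reach 42094 in DSS replicate 2 alone.

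Most of the transcription factors listed for the state of the epithelium were lower. In the list of GATA, HNF and CDX factors and their partners 9 of 15 genes were lower and 1 was higher, with a median log2 fold change of -1.40. Hnf4a, the nuclear receptor that drives much of the enterocyte program, had normalised read counts of 8263 and 7903 in water versus 2738 and 1057 in DSS (log2 fold change -2.25 ± 0.43 SE, adjusted p = 0.0236). Ppargc1a, a coactivator that raises mitochondrial gene expression, had 574 and 673 in water, against 139 and 50.3 in DSS (-2.88 ± 0.47 SE, adjusted p = 0.0164). In both genes each DSS library lay under each water library, and DSS replicate 2 was the lowest. Cdx1, a homeobox factor of intestinal identity, stood at 0.248 of the water level. Its relative Cdx2 (0.420, adjusted p = 0.0924) did not pass. The member that rose, Isx, an intestinal homeobox factor that responds to retinoic acid, had 0.960 and 9.10 in water, compared with 131 and 56.6 in DSS. Lists share members: Vdr is counted here, among the nuclear receptors and among the calcium genes, Hnf4a also among the nuclear receptors, and Isx also among the retinoid genes.

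Nuclear receptors, the ligand-controlled transcription factors for hormones, vitamins, bile acids and lipids, had 15 of 42 members lower and 3 higher, with a median of -0.82. Vdr, the vitamin D receptor, had 3739 and 3857 in water versus 648 and 439 in DSS (-2.83 ± 0.22 SE, adjusted p = 0.00412). The estrogen-related receptor gene Esrrg was at 0.133 of water, Nr1i3, the xenobiotic receptor CAR, at 0.178, and Nr3c2, the mineralocorticoid receptor that controls colonic sodium uptake, at 0.191. The groups did not overlap for any of these 4 receptors, which the naming rule required of Vdr, Esrrg and Nr1i3. The 3 receptors that rose were Nr4a2, with 16.3 and 13.6 in water, against 179 and 323 in DSS (15.1-fold), Nr4a1 (7.68-fold), both immediate-early orphan receptors, and Rora (2.50-fold).

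The HOX genes mark position along the gut, and those of the last paralogous group mark its posterior end. Of 28 HOX genes tested 4 were lower and 1 higher, with a median of -0.37. Hoxb13 had 3212 and 3386 in water, compared with 960 and 582 in DSS (0.227 of water, adjusted p = 0.00854), Hoxd13 stood at 0.346, Hoxa13 at 0.386 and Hoxb9 at 0.352. The member that rose, Hoxb4, had 17.3 and 11.4 in water versus 46.9 and 57.5 in DSS. Among 22 Kruppel-like and Sp factors 4 were lower and none higher, led by Klf4, a factor of differentiated surface cells, with 7055 and 6734 in water, against 1667 and 1605 in DSS. Sox9, a factor of the crypt base, stood at 0.320 of water, while the endothelial factor Sox17 was 3.54-fold higher.

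RefSeq promoter windows (GRCm38.p6, 250 bases before to 50 after each annotated start) were searched on both strands for 15 short motifs, and 13437 of the genes tested had a window. The HNF1 motif lay in the windows of 8 of 1113 genes lower in DSS (0.719%), 1 of 1117 higher (0.0895%) and 0.335% of all genes. The HNF4 motif CAAAGTCCA lay in 13 of the lower genes (1.17%), 7 of the higher (0.627%) and 0.528% of all genes. Over all 32851 windows the shares were 0.399% and 0.475%. The 3 stretches below show such matches before the start of genes lower in DSS: Slc26a3, the chloride-bicarbonate exchanger (chr12:31438111-31438168, plus strand), Cdhr2, a microvillar cadherin (chr13:54701385-54701442, plus strand), and Trpv6, the apical calcium channel (chr6:41636522-41636578, minus strand). Capitals mark the HNF1 motif in the first pair and the HNF4 motif in Trpv6, and no other motif searched overlapped them.
Slc26a3: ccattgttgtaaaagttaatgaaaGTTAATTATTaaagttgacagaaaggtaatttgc
Cdhr2: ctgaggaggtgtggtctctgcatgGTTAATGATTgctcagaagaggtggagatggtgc
Trpv6: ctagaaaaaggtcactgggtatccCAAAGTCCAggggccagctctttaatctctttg
A match of letters is a description and not a binding site. The other motifs gave shares of their own: ETS (CCGGAAG) lay in 6.80% of higher, 12.5% of lower and 16.5% of all genes, and the E-box (CACGTG) in 7.97%, 10.96% and 10.51%. STAT (TTCNNNGAA) lay in 10.2%, 7.64% and 8.54%, and the interferon-stimulated element in 5.73%, 3.59% and 3.91%. AP-1 (TGANTCA) had 9.22% in higher, 9.34% in lower and 7.25% in all genes, and CDX (TTTATGG) had 2.06%, 1.98% and 2.33%. The motif AGATAAG, read by GATA factors, had 3.85%, 3.23% and 2.73%. TEAD (GGAATG), the ROR element (TAGGTCA), the cyclic AMP element (TGACGTCA) and the serum response element had 15.3%, 2.60%, 2.51% and 0.0895% in higher genes. In lower genes they had 17.2%, 2.43%, 2.25% and 0.0898%, and in all genes 14.9%, 2.33%, 3.16% and 0.0298%.

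The brush border was the list with the largest share of lower genes of the 33 lists plotted. Of 34 genes for microvillar structure and its membrane hydrolases 24 were lower and none higher, with a median of -1.43. That median stood at -1.19 and -1.60 in the DSS libraries, beside -1.14 and -1.57 for the general epithelium markers, and the difference between the lists was not tested. Naaladl1, a membrane peptidase, had 272 and 371 in water, compared with 25.5 and 17.7 in DSS (-3.84 ± 0.34 SE, adjusted p = 0.00516). Mep1a, the alpha subunit of the metalloprotease meprin, had 2185 and 2281 in water versus 395 and 186 in DSS (0.122 of water). Espn, an actin-bundling protein of microvilli, had 776 and 678 in water, against 107 and 97.3 in DSS (0.142). For these 3 genes the groups were far apart and did not overlap, the latter being required by the naming rule. Genes that link neighbouring microvilli were among the list members that fell. Of these, Cdhr2, Cdhr5 and Ush1c were named after their values were seen. Cdhr2 stood at 0.401 of water, its partner cadherin Cdhr5 at 0.415, the scaffold Ush1c at 0.302 and the motor Myo7b at 0.404. Among 25 unconventional myosins 8 were lower, such as the brush border motor Myo1a (0.353 of water), and 3 were higher, Myo5a (4.03-fold), Myo1g (3.02-fold) and Myo1f (2.55-fold), the last pair being myosins of blood cells.

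**Figure D2:**
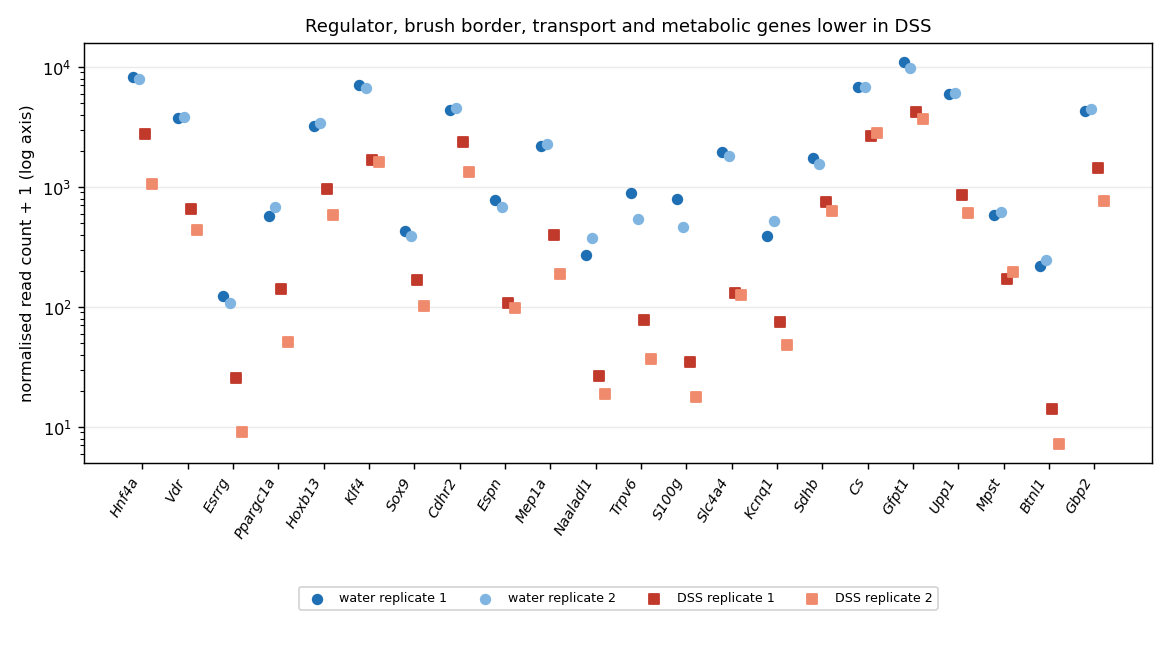
Normalised read count, plus 1, of regulator, brush border, transport, metabolic and interferon-induced genes (log axis) in the 4 libraries, with 1 point for each library. For each gene both DSS points lie under both water points, as for Vdr with 3739 and 3857 in water versus 648 and 439 in DSS.

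Among genes for mineral uptake, the list of calcium, phosphate and magnesium absorption, 9 of 18 were lower, none higher and 9 not called, with a median of -1.19 and 7 members above 0. S100g, the cytosolic calcium carrier calbindin-D9k, had 787 and 464 in water, against 33.5 and 16.8 in DSS (-4.61 ± 0.43 SE, adjusted p = 0.00568). Trpv6, through which calcium enters the cell, had 891 and 541 in water, compared with 76.4 and 36.0 in DSS (-3.70 ± 0.43 SE, adjusted p = 0.00815). Together with Vdr, whose ligand induces both in the gut, these genes stood between 0.0409 and 0.141 of water. The magnesium channel Trpm6 had 3069 and 2686 in water versus 553 and 319 in DSS, and its basolateral counterpart Cnnm4 stood at 0.303 of water. The sodium-phosphate cotransporter Slc34a2 was at 0.155 and the calcium pump Atp2b1 at 0.484.

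Other transport genes split. Of 258 solute carriers outside the mitochondrial family, 40 were lower and 25 higher, with a median of 0.11, close to that of all genes. Slc4a4, the sodium-bicarbonate cotransporter, had 1968 and 1794 in water, against 129 and 125 in DSS (-3.88 ± 0.17 SE, adjusted p = 0.00127). Slc27a2, a fatty acid transporter, had 47.0 and 31.8 in water, compared with 3.02 and 0.479 in DSS. Carriers that rose included Slc7a11, the cystine-glutamate exchanger, with 42.2 and 36.4 in water versus 329 and 487 in DSS (9.99-fold), and Slc15a3, a lysosomal peptide and histidine carrier (7.79-fold). Of 73 potassium channel genes 5 were lower and 6 higher, with a median of 0.88. The subunits of the epithelial channel that drives chloride secretion were lower: Kcnq1 had 391 and 523 in water, against 73.7 and 47.0 in DSS, and Kcne3 stood at 0.185 of water. The subunits of a vascular ATP-sensitive channel were higher: Kcnj8 had 73.9 and 125 in water, compared with 821 and 1482 in DSS, and Abcc9 had 127 and 196 in water versus 1541 and 1989 in DSS. Kcnj8 was thus 11.4-fold and Abcc9 11.1-fold higher, beside the 5 of 5 endothelial markers higher. All 10 smooth muscle markers had a negative log2 fold change (median -0.78), with 1 called lower. The part of these cell types was not tested. Among ABC transporters the efflux pump gene Abcb1a stood at 0.191 of water while its paralog Abcb1b was 4.51-fold higher, with 22.1 and 20.5 in water, against 79.4 and 124 in DSS.

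The central oxidation cycle of the mitochondrion was lower. Of 24 genes of the tricarboxylic acid cycle and pyruvate entry 12 were lower and none higher, with a median of -0.85, and in 23 of 24 each DSS library lay under each water library (as in 28.5% of all genes). Cs, citrate synthase, had 6861 and 6754 in water, compared with 2648 and 2831 in DSS (-1.31 ± 0.16 SE, adjusted p = 0.00848). All 4 subunits of succinate dehydrogenase passed, with Sdhb at 1724 and 1537 in water versus 741 and 633 in DSS, and Suclg1, of succinyl-CoA ligase, stood at 0.351 of water. Of the mitochondrial ribosomal proteins 6 of 77 were lower (7.79%, near the background of 7.28%) and none was higher. Their median was -0.33, with 43 of 77 lower in both DSS libraries. Of the genes for import and inner-membrane organisation 3 of 28 were lower, with Chchd10 at 0.331 of water, and of the peroxisomal genes 2 of 39, Ehhadh (0.304) and Ech1 (0.551). In the breakdown of branched-chain amino acids 3 of 22 were lower, led by Pccb, a subunit of propionyl-CoA carboxylase, with 1069 and 876 in water, against 263 and 240 in DSS.

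The list of the pentose phosphate pathway and sugar interconversion, whose products include precursors of glycans, had 14 of 30 genes lower and 1 higher, with a median of -0.90. Gfpt1, which starts the hexosamine pathway, had 11032 and 9765 in water, compared with 4204 and 3704 in DSS (-1.39 ± 0.18 SE, adjusted p = 0.00931). Its paralog Gfpt2 was the member that rose, with 5.76 and 4.55 in water versus 48.2 and 195 in DSS (16.0-fold, adjusted p = 0.0211). The paralogs thus moved in opposite directions, and the level of Gfpt1 stayed the higher one in both groups. Gmds, the first enzyme of GDP-fucose synthesis, stood at 0.297 of water and Galm, galactose mutarotase, at 0.214. With scaling by library size only, 6 members of this list were lower and 1 was higher. The goblet cell markers, of the cells that secrete mucin, had 1 of 6 lower and summed to 68308 and 58663 in water, against 35484 and 13989 in DSS, and their part was not tested.

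Colonic bacteria make hydrogen sulphide, which the epithelium oxidises in its mitochondria. Of the glutathione and thioredoxin list, genes known from sulphide metabolism were among those that fell. Ethe1 and Sqor were named after their values were seen. Tst, a sulphurtransferase, had 1413 and 1619 in water, compared with 351 and 183 in DSS (0.168 of water). Mpst, a related enzyme, stood at 0.302 and Ethe1, the persulphide dioxygenase, at 0.332. Sqor, the sulphide-quinone oxidoreductase, stood at 0.533 (not called with scaling by library size only). Each of these 4 genes had no overlap between the groups, which the naming rule required of Tst and Mpst. Cbs and Cth, the enzymes that make cysteine from homocysteine and can release sulphide themselves, stood at 0.118 and 0.217. In that whole list 10 of 38 were lower and 8 higher, with a median of -0.14 that turned to 0.09 with scaling by library size only. The members that rose were led by Sod3, the extracellular superoxide dismutase, with 126 and 223 in water versus 1106 and 3962 in DSS, by Slc7a11 and by Ggt1, which splits extracellular glutathione (8.88-fold). Prdx6, an abundant peroxiredoxin, had 34222 and 36251 in water, against 11670 and 9192 in DSS.

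Lipid and nucleoside genes moved in both directions within their families. Of 30 sphingolipid genes 9 were lower and 4 higher, with a median of -0.19 that turned to 0.04 with scaling by library size only. Acer1, a ceramidase, had 345 and 262 in water, compared with 47.6 and 9.11 in DSS, and Gal3st1, which makes sulphatide, stood at 0.178 of water. Sphk1, which makes the signalling lipid sphingosine 1-phosphate, had 41.3 and 34.1 in water versus 155 and 707 in DSS (8.63-fold, adjusted p = 0.0342), and the receptors for that lipid S1pr1, S1pr2 and S1pr3 all rose, S1pr3 by 7.67-fold. In nucleoside turnover 5 of 29 genes were higher and 4 lower. Upp1, uridine phosphorylase, had 5963 and 6068 in water, against 859 and 602 in DSS (-3.06 ± 0.21 SE, adjusted p = 0.00297). Of the enzymes that break down extracellular ATP, Entpd1, the ecto-enzyme CD39, was 3.70-fold higher and the epithelial Entpd8 stood at 0.279 of water. Adora2b, an adenosine receptor, had 3 reads in water; its DSS to water ratio was 13.7 (95% counting interval, 4.60 to 67.4). Of the hypoxia-inducible targets 5 of 26 rose, led by Angptl4, an inhibitor of lipoprotein lipase, with 7.68 and 13.6 in water, compared with 312 and 777 in DSS, and the lysyl oxidase gene Lox (6.86-fold), while Pdk1, of pyruvate dehydrogenase control, stood at 0.493 of water and the MAX-binding Mxi1 at 0.467.

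Retinoid genes moved in both directions. Vitamin A is stored as esters, oxidised to retinal and then to retinoic acid, the ligand of the retinoic acid receptors. Of 29 genes 8 were higher and 5 lower, with a median of 0.35. Among the genes that rose was Stra6, the retinol uptake receptor, with 13.4 and 4.55 in water versus 126 and 923 in DSS (38.2-fold, adjusted p = 0.0224). The retinal-forming Rdh10 was 3.22-fold higher, and Aldh1a3, which makes retinoic acid, had 79.7 and 107 in water, against 1476 and 3631 in DSS (24.8-fold, adjusted p = 0.00568). For these genes both DSS libraries lay above both water libraries, which the naming rule required of Stra6 and Aldh1a3, with DSS replicate 2 higher. The rise of Stra6 was largest in DSS replicate 2, where the squamous markers were also highest (213 and 42094 in DSS). The part of that tissue was not tested. Among those that fell were Adh1, an alcohol dehydrogenase that also oxidises retinol, with 8346 and 7439 in water, compared with 1794 and 882 in DSS, Rbp2, the retinol-binding protein of the enterocyte (0.183 of water), the dehydrogenase gene Rdh9 (0.197) and Aldh1a1 (0.403). Aldh1a3 and Aldh1a1, 2 of the retinal dehydrogenase genes, thus moved in opposite directions, and other members of that family are not described here. Of the enzymes that degrade retinoic acid, Cyp26b1 had 28.8 and 2.27 in water versus 47.6 and 37.4 in DSS and did not pass.

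General machinery for making and destroying proteins gave few calls. None of the proteasome subunits outside the immunoproteasome (33 tested), the signal peptide and translocon genes (23), the N-glycan assembly genes (26), the COPI and COPII coat genes (19) or the haem synthesis genes (12) passed in either direction. Their medians were -0.14, 0.09, -0.08, -0.07 and -0.35, and those of the proteasome, N-glycan and coat lists turned to 0.10, 0.16 and 0.16 with scaling by library size only. A p that misses the threshold does not show that these genes were at the same level. Of 34 ribosome biogenesis genes 3 were higher and none lower, Gnl3 (2.17-fold), Heatr1 (2.08-fold) and the helicase gene Ddx21 (1.65-fold), with a median of 0.52. In 25 of 34 each DSS library lay over each water library, as in 34.0% of all genes, and 13 were called with scaling by library size only. Among 361 zinc finger genes of the Zfp series, the largest list, 13 were higher and 8 lower, and among 99 helicases and splicing factors 2 were higher and 1 lower.

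**Figure D3:**
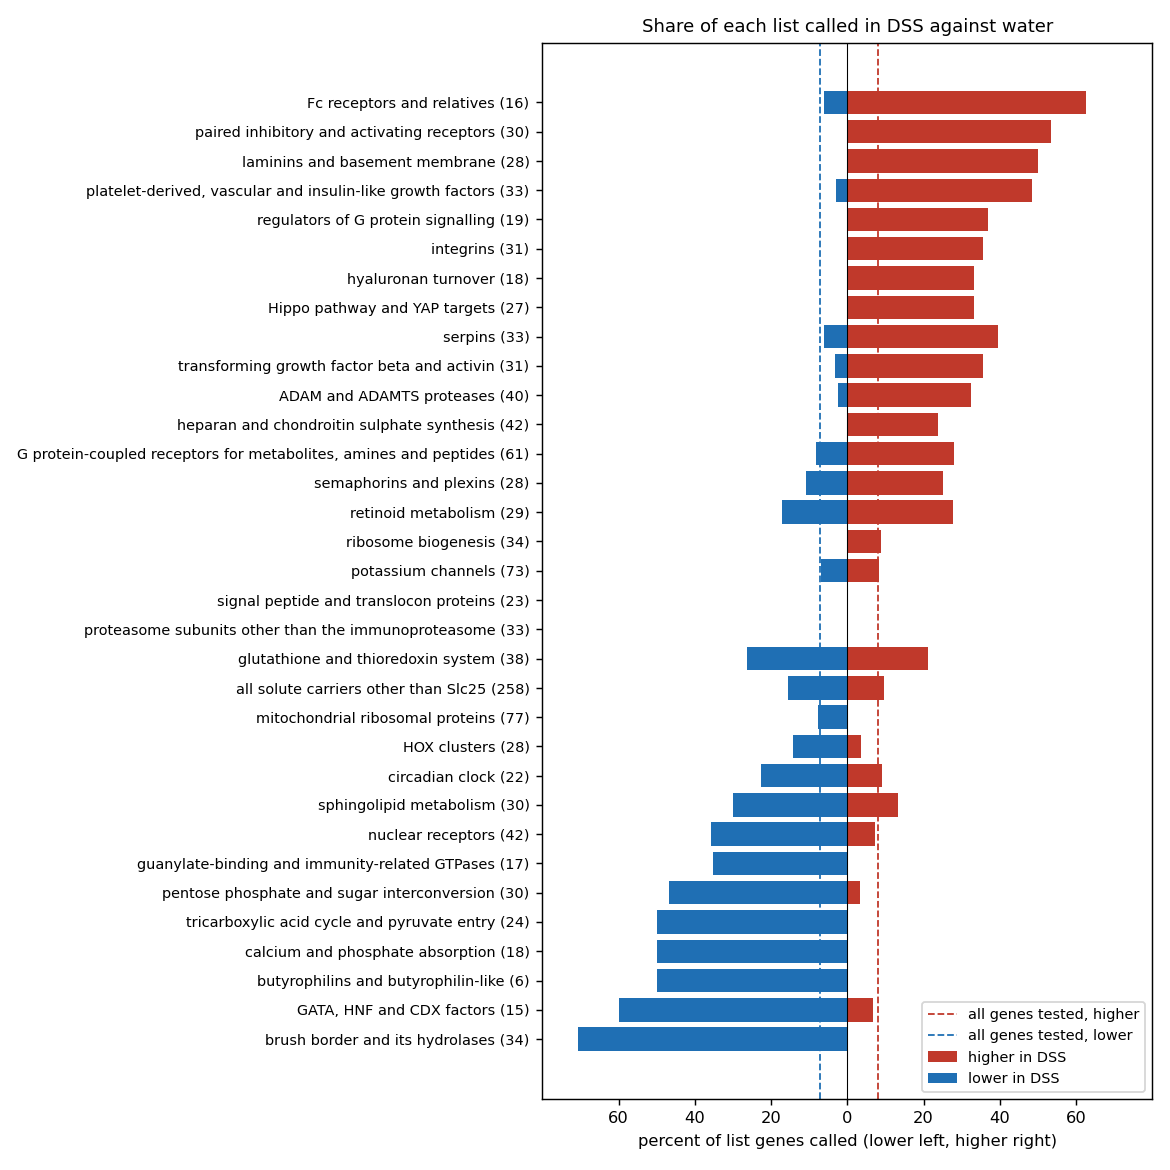
Percent of the tested genes of 33 lists called higher (right bars) or lower (left bars) in DSS, with dashed lines at the shares over all genes tested, 7.95% and 7.28%. Brush border, calcium and tricarboxylic acid cycle lists hold only lower calls, laminins, integrins and paired receptors only higher calls, and proteasome and translocon lists none.

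Clock genes were called in both directions. The core clock drives genes with a D-box through the activators Dbp and Tef, which Nfil3 opposes. Of 22 clock genes 5 were lower and 2 higher, with a median of -0.47. Dbp had 471 and 384 in water, against 33.8 and 73.3 in DSS (-3.07 ± 0.40 SE, adjusted p = 0.0102), Tef stood at 0.379 of water (not called with scaling by library size only), Per3 at 0.330 and Nr1d1, a repressor of the clock, at 0.299. Nfil3 rose, with 27.8 and 15.9 in water, compared with 150 and 376 in DSS (10.8-fold, adjusted p = 0.0145). The core genes Arntl (296 and 275 in water, 277 and 198 in DSS) and Cry1 (114 and 166, 154 and 201) had overlapping groups and did not pass. The hour at which tissue was taken is not given in the labels, and its part was not tested. The D-box motif TTATGTAA had 2 matches before the start of Per3. It lay in 0.938% of all promoter windows, and in 0.848% of all genes, 1.34% of higher and 0.898% of lower genes. The stretch with the match nearer to the start (chr4:151044792-151044847, minus strand) shows it in capitals.
Per3: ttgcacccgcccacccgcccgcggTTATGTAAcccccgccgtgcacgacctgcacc

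Protease inhibitors of the serpin family rose in part, with 13 of 33 higher, 2 lower and a median of 2.06. Serpins trap proteases by offering a bait loop, and the Serpina3 genes, relatives of human antichymotrypsin, form a multigene cluster on chromosome 12. Serpina3n, an inhibitor of leukocyte serine proteases, had 54.7 and 81.9 in water versus 3754 and 9265 in DSS (log2 6.44 ± 0.44 SE, adjusted p = 0.00295). Serpina3m had no read in water, against 111 and 475 in DSS, at least 129-fold higher when 3 reads for the whole group are taken as the floor. Serpina3g had 181 and 171 in water, compared with 669 and 1260 in DSS. In all 3 both DSS libraries lay above both water libraries. Serpina3i had 1 read in water; its DSS to water ratio was 58.4 (95% counting interval, 10.4 to 2319). Serpina3f, with 69.1 and 52.3 in water versus 116 and 550 in DSS, did not pass. The copies are alike and Serpina3m overlaps Serpina3k in the annotation, while the authors' way of counting shared reads is not given, so the split between them is uncertain. Such intervals and floors cover counting error only.

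The NF-kB motif was found in 3 of the 8 Serpina3 genes with a promoter window, and those 3 rose. Of the other 5, Serpina3c and Serpina3f were not called and 3 were not in the table, and Serpina3m, which rose, had no window, so these counts do not link the motif to the rise. The NF-kB motif lay in 1.63% of all windows, and in 2.05% of all genes, 2.69% of higher genes and 2.79% of lower genes. The 3 stretches lie at chr12:104406513-104406570 (Serpina3n), chr12:104236038-104236095 (Serpina3g) and chr12:104262944-104263001 (Serpina3i), all on the plus strand, with the motif in capitals. They are printed because they differ inside the motif and around it.
Serpina3n: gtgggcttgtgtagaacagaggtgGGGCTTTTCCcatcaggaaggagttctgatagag
Serpina3g: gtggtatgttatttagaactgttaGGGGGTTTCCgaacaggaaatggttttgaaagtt
Serpina3i: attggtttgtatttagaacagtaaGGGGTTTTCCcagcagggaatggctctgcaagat
Position by position without gaps, 42 of 58 bases were identical between Serpina3g and Serpina3i, 36 between Serpina3i and Serpina3n, and 34 between Serpina3g and Serpina3n. Other serpins that rose included Serping1, the inhibitor of complement C1 (3.81-fold), and Serpinh1, the collagen chaperone (3.27-fold). The 2 that fell, Serpinb1a (0.496 of water) and Serpinb6a (0.525), are intracellular inhibitors.

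Among serine proteases of the kallikrein and transmembrane families and their relatives 9 of 39 were lower, 2 higher and 28 not called. The median was 0.43 (22 members positive and 17 negative), and the DSS libraries differed in its sign. It stood at -0.91 in DSS replicate 1 and at 0.73 in DSS replicate 2. The sign of the median also changed with the filter at 20 and without DSS replicate 2, so it gives no direction for the list. Klk1, a kallikrein, had 3609 and 2975 in water, compared with 451 and 162 in DSS, Prss30 stood at 0.293 of water and Tmprss2 at 0.307. The 2 genes that rose did so mainly in 1 library: Prss22 had 0 and 9.10 in water versus 124 and 1217 in DSS, and Prss27 had 3.84 and 4.55 in water, against 61.3 and 979 in DSS. The squamous markers moved with DSS replicate 2 in the same way (213 and 42094 in DSS), and their part in these values was not tested.

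Many basement membrane and matrix genes rose. They did so beside fibroblast markers (4 of 6 higher, median 1.49) and endothelial markers (5 of 5, median 2.23), and the part of those cells in the matrix, glycan and hyaluronan genes was not tested. Laminins, nidogens and collagens of the basement membrane had 14 of 28 genes higher and none lower, with a median of 1.41. Lama1, the laminin alpha chain typical of embryonic basement membranes, had 26.88 and 25.02 in water, compared with 295 and 442 in DSS (13.4-fold, adjusted p = 0.00456). Col18a1, whose cleavage gives endostatin, had 199 and 330 in water versus 2057 and 5048 in DSS (12.5-fold), and Col4a1, the main network collagen, had 830 and 1185 in water, against 4406 and 10094 in DSS (6.72-fold). In all 3 the lower DSS library exceeded the higher water library several times over. Of the chains of the epithelial laminin-332, Lama3 was 2.07-fold higher, whereas Lamb3 had 1834 and 1853 in water, compared with 1768 and 1580 in DSS and did not pass. Integrins, the receptors for these proteins, had 11 of 31 higher and none lower, led by Itgb8, an activator of latent TGF-beta, with 30.7 and 2.27 in water versus 356 and 353 in DSS. The leukocyte integrin Itgam (5.87-fold) was also among them, beside the 6 of 6 neutrophil markers higher, and the part of these cells was not tested.

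Sulphated glycans and hyaluronan fill the space between matrix fibres. Of 42 genes of heparan and chondroitin sulphate synthesis 10 were higher and none lower, with a median of 0.81. Sulf1, which strips sulphate from heparan at the cell surface, had 72.9 and 105 in water, against 1062 and 1075 in DSS (12.1-fold, adjusted p = 0.00266). The chondroitin sulphotransferases Chst3, with 12.5 and 11.4 in water, compared with 238 and 103 in DSS, and Chst11 were 12.2-fold and 10.5-fold higher. Of the core proteins that carry such chains, 6 of 26 were higher and 1 was lower. Vcan, versican, had 223 and 232 in water versus 1302 and 1350 in DSS, and Dcn, decorin, itself one of the 6 fibroblast markers, was 7.94-fold higher, while Ogn, osteoglycin, stood at 0.325 of water.

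In hyaluronan turnover 6 of 18 genes were higher and none lower, with a median of 1.64. Cemip, which breaks hyaluronan into smaller chains, had 48.0 and 20.5 in water, against 2172 and 6116 in DSS (log2 6.81 ± 0.58 SE, 112-fold, adjusted p = 0.00501). The hyaluronan-binding Tnfaip6 was 7.06-fold, Layn 5.62-fold and the receptor Cd44 3.60-fold higher. The synthases did not pass: Has2 had 10.6 and 0 in water, compared with 50.9 and 44.6 in DSS (adjusted p = 0.0754), and Has3 had 9.60 and 6.82 in water, 15.1 in DSS replicate 1 and 267 in DSS replicate 2. The ADAM and ADAMTS proteases shed membrane proteins and cut proteoglycans. Of 40 genes of these proteases and their relatives 13 were higher and 1 lower. Adamts4, an aggrecanase, had 9.60 and 25.02 in water versus 259 and 1299 in DSS (35.0-fold), and Adam12 was 34.5-fold higher. Adamtsl2, an ADAMTS-like gene and not a protease, had no read in water and was at least 24.5-fold higher. Adamts15, which also cuts versican, fell to 0.403 of water.

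**Figure D4:**
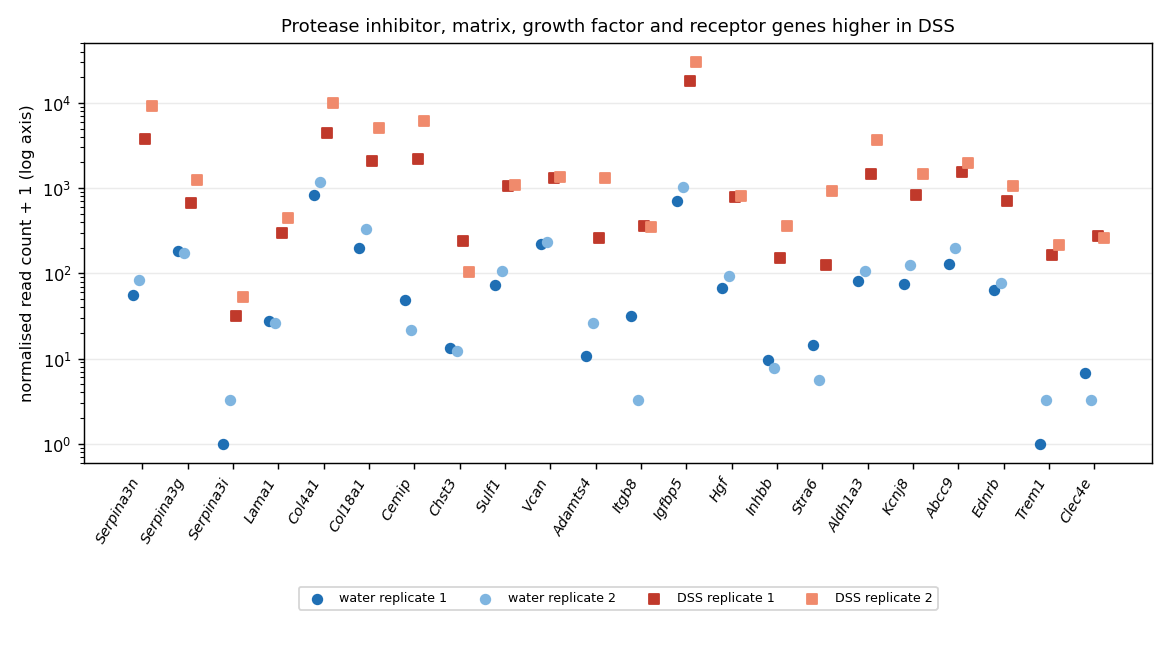
Normalised read count, plus 1, of protease inhibitor, matrix, growth factor, retinoid and receptor genes (log axis) in the 4 libraries, with 1 point for each library. Both DSS points lie over both water points in each gene, and Serpina3n rises from 54.7 and 81.9 to 3754 and 9265.

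Many growth factor genes of the mesenchyme and vessels rose. In the list of platelet-derived, vascular and insulin-like growth factors, receptors and binding proteins 16 of 33 genes were higher and 1 lower, with a median of 1.43. Igfbp5, an insulin-like growth factor binding protein, had 704 and 1028 in water, against 18151 and 30377 in DSS (27.6-fold, adjusted p = 0.00253). Hgf, the hepatocyte growth factor that mesenchyme sends to epithelium, had 67.2 and 91.0 in water, compared with 778 and 810 in DSS (log2 3.33 ± 0.23 SE, adjusted p = 0.00300). The receptor genes Pdgfrb (5.29-fold) and Kdr (4.72-fold), the latter itself an endothelial marker, and the ligand gene Igf1 (2.79-fold) were higher, and Igfbp2 stood at 0.211 of water. Among fibroblast growth factors and receptors 3 of 17 were higher, and all 3 were ligands: Fgf2 (7.17-fold), Fgf10 (6.43-fold) and Fgf7, which acts on epithelium, with 103 and 107 in water versus 516 and 865 in DSS. Fgfbp1, a carrier of such ligands, stood at 0.353 of water. These rises stood beside 4 of 6 fibroblast markers higher, with sums of 6229 and 7564 in water, against 26017 and 38537 in DSS, and the part of those cells was not tested.

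Transforming growth factor beta and activin genes had 11 of 31 higher and 1 lower. The ligand subunits of activin rose: Inhbb had 8.64 and 6.82 in water, compared with 152 and 360 in DSS (27.1-fold), and Inhba had 41.3 and 59.1 in water versus 632 and 894 in DSS (14.9-fold). Thbs1, thrombospondin 1, which can release TGF-beta from its latent form, was 17.4-fold higher, and Tgfb1 itself 3.20-fold. The member that fell, Smad7, an inhibitor inside the pathway, stood at 0.464 of water. In the Hippo list 9 of 27 genes were higher and none lower. Tead4, a DNA-binding partner of the coactivators YAP and TAZ, had 17.3 and 11.4 in water, against 97.2 and 193 in DSS (9.17-fold), and Wwtr1, the gene of TAZ, was 2.61-fold higher. Yap1, with 608 and 607 in water, compared with 745 and 932 in DSS, did not pass (adjusted p = 0.151). The target Ccn1 was 4.12-fold higher and Ccn2, with overlapping groups, did not pass.

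Of 18 Hedgehog pathway genes 2 were higher and 2 lower, with a median of 0.17. Ihh, the ligand of the colonic epithelium, had 747 and 635 in water versus 180 and 73.8 in DSS (0.169 of water), and Hhip, a decoy receptor that Hedgehog signals induce, had 275 and 343 in water, against 35.8 and 53.7 in DSS (0.146). The transcription factors Gli2 (2.87-fold) and Gli3 (3.95-fold) were higher. Guidance genes known from axons rose in part: of 28 semaphorins and plexins 7 were higher and 3 lower, with Sema7a 8.31-fold higher and Sema4g, with 5981 and 5786 in water, compared with 2398 and 1345 in DSS, lower. Artn, artemin, a neurotrophic factor of the GDNF family, had 5.76 and 4.55 in water versus 71.4 and 103 in DSS (14.2-fold), and Ret, the receptor kinase of that family, was 6.11-fold higher. Ret is itself 1 of the 6 enteric neuron and glia markers, of which 3 were higher (median 2.12), with sums of 85.4 and 152 in water, against 498 and 577 in DSS, and their part was not tested. Its co-receptor Gfra3 had 14.4 and 6.82 in water, against 10.1 and 7.19 in DSS. Of 20 ephrins and ephrin receptors 4 were lower and 1 higher, with Ephb6 at 0.330 of water and Efna3 at 0.209.

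**Figure D5:**
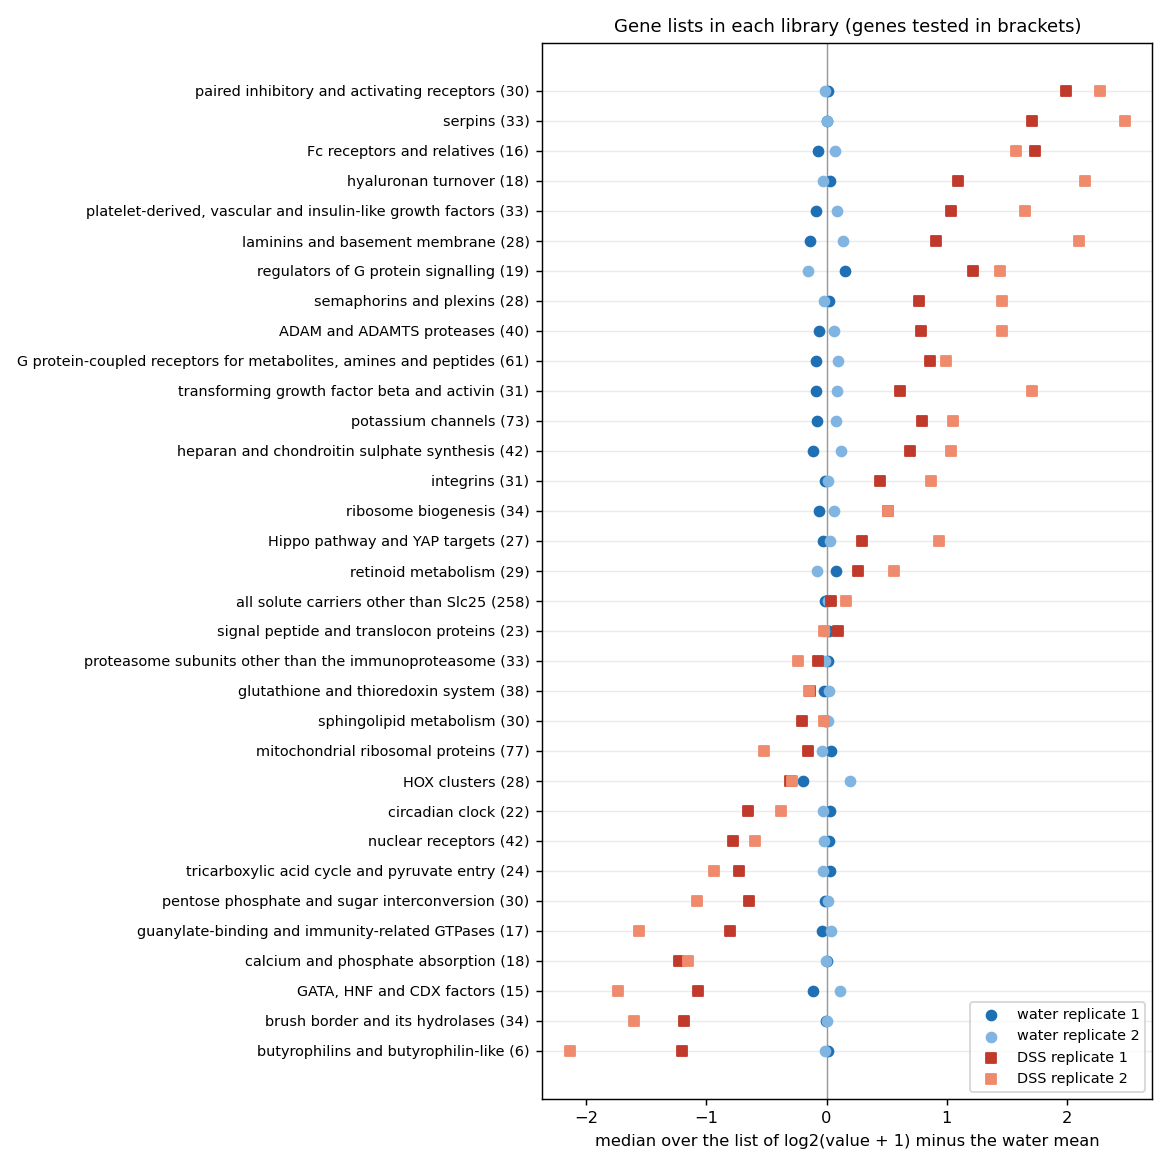
Median over each of 33 lists of log2(value + 1) minus the water mean, with 1 point for each library and the number of genes tested in brackets. Brush border genes lie at -1.19 and -1.60 in the DSS libraries and laminins at 0.91 and 2.10, and most of the lists that rise lie higher in DSS replicate 2.

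Many receptors for small ligands rose. Of 61 G protein-coupled receptors for metabolites, amines and peptides 17 were higher and 5 lower, with a median of 1.04. Ednrb, an endothelin receptor, had 62.4 and 75.0 in water, compared with 709 and 1068 in DSS (12.5-fold, adjusted p = 0.00334), and its relative Ednra was 7.98-fold higher. Bdkrb1, the inducible bradykinin receptor, had 2.88 and 13.6 in water versus 101 and 209 in DSS (19.4-fold). Gpr84, a receptor for medium-chain fatty acids on myeloid cells, had 1 read in water; its DSS to water ratio was 56.1 (95% counting interval, 9.95 to 2227). Receptors that fell included Htr4, a serotonin receptor (0.128 of water), Vipr1, for vasoactive intestinal peptide, with 2644 and 2445 in water, against 1135 and 714 in DSS, and F2rl1, a receptor that proteases activate (0.403). The second receptor for that peptide, Vipr2, was 3.10-fold higher. Regulators of G protein signalling, which end such signals, had 7 of 19 higher and none lower, among them Rgs16 (8.41-fold), Rgs9 (5.05-fold) and Rgs4 (4.37-fold).

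Transient receptor potential and piezo channels had 5 of 22 higher and 5 lower. Trpa1, an irritant sensor, had 8.64 and 27.3 in water, compared with 219 and 107 in DSS (9.33-fold), and Trpc6 and Trpm2 were 4.78-fold and 4.36-fold higher. Trpv3, a warmth-sensitive channel, had 1194 and 766 in water versus 258 and 108 in DSS. Phosphodiesterases, which break down cyclic nucleotides, had 5 of 21 higher and 2 lower, led by Pde10a (11.1-fold) and Pde4b, with 66.2 and 102 in water, against 524 and 936 in DSS (8.41-fold).

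Many receptor genes of immune cells rose. Of 30 paired inhibitory and activating receptors, which tune myeloid and lymphoid cells through signalling motifs in their tails or adaptors, 16 were higher and none lower, with a median of 2.25. Trem1, an amplifier of myeloid activation, had values of 161 and 215 in DSS with 1 read in water, so that the ratio was 271 (95% counting interval, 48.6 to 10732). Cd300lf, a lipid receptor of myeloid cells, had 10.6 and 11.4 in water, compared with 206 and 369 in DSS. Fc receptors and relatives had 10 of 16 higher and 1 lower. Fcrl1, of B cells, had 13.4 and 15.9 in water versus 240 and 107 in DSS, while Pigr, which carries immunoglobulin A across the epithelium, fell from 31689 and 29938 to 8291 and 4846. Of 25 C-type lectins 5 were higher and 2 lower (Clec3b at 0.224 and Clec2h at 0.453 of water). The rises were led by Clec4d and Clec4e, sensors of fungi and of dead cells. Clec4e had 5.76 and 2.27 in water, against 273 and 261 in DSS (56.9-fold), and Clec4d had 3 reads in water; its DSS to water ratio was 132 (95% counting interval, 45.0 to 639). These counts stood beside neutrophil marker sums of 25.9 and 40.9 in water, compared with 3384 and 7569 in DSS. The lymphoid follicle markers summed to 131 and 191 in water, against 2772 and 1712 in DSS, with 3 of 4 higher. The B and plasma cell markers had 6 of 6 higher. The part of these cells was not tested. Foxp3, the factor of regulatory T cells, had no read in water and was at least 13.7-fold higher in DSS.

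Other immune genes fell. Of 17 guanylate-binding and immunity-related GTPases, which interferons induce and which attack vacuolar microbes, 6 were lower and none higher, with a median of -1.07. Gbp2 had 4261 and 4494 in water versus 1425 and 766 in DSS (0.239 of water), Gbp2b stood at 0.0690 and Tgtp1 at 0.158. With them fell 4 neighbouring genes of antigen presentation on chromosome 17: H2-DMb1 (0.236 of water), Psmb9 (0.297), Tap1 (0.428) and Psmb8 (0.328), of which Psmb8 had 1675 and 1876 in water, against 662 and 509 in DSS. Butyrophilin-like genes, which keep intraepithelial gamma-delta T cells in place, had 3 of 6 lower and none higher. Btnl1 had 219 and 243 in water, compared with 13.1 and 6.23 in DSS (0.0435 of water, adjusted p = 0.00611), and Btnl6 and Btnl4 stood at 0.242 and 0.307. Among the T and NK cell markers 1 of 7 was higher and none lower.

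Called protein-coding genes also lay side by side in the genome, when genes of other classes between them were skipped. Of all protein-coding genes tested 9.05% were higher and 8.82% lower. Runs of at least 4 neighbours among these genes called in the same direction numbered 18, 10 of them higher and 8 lower. No expected number of runs was worked out. The longest runs were 7 genes of the Trem cluster, higher (GRCm38, chr17:48125605-48327024), and 7 genes from Eps8l3 through the Gstm glutathione transferases, lower (chr3:107877229-108017973). Gstm3 had 239 and 232 in water versus 34.2 and 8.15 in DSS. A run of 5 genes on chromosome 1 held interleukin-1 family receptors (chr1:39900913-40465415). In it Il1rl1, the interleukin-33 receptor, had 57.6 and 66.0 in water, against 2254 and 3250 in DSS (43.2-fold, adjusted p = 0.00127). A run of 4 held selectin genes (chr1:164048234-164220277), the adhesion molecules that slow leukocytes on vessel walls. Of these Sele had no read in water and was at least 28.3-fold higher, and Selp was 39.6-fold higher. Further runs that were lower held 5 Cyp2d cytochrome genes on chromosome 15 and the growth factor receptor gene Erbb2 with Grb7, which stood at 0.385 and 0.293 of water. Members of the Gstm and Cyp2d families are near-identical copies, and their single values are uncertain for the reason given for the Serpina3 genes.

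Calls differed by gene class. When protein-coding genes were cut into 5 bins by exonic length, in the bin with the shortest 11.5% were lower and 8.15% higher, and in the bin with the longest 6.49% were lower and 9.83% higher, with medians of -0.06 and 0.18. In the bins of equal size by GC content 8.63% to 9.57% were higher and 5.54% to 11.1% lower. Of 186 immunoglobulin variable genes 83 were higher and none lower, and of 757 long intergenic RNAs 26 were higher and 19 lower.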

How the data were processed

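RNA from 4 colon libraries was compared. Reads were mapped to mm10 (GRCm38), per the submitters' processing notes; which aligner, counter and normaliser were used is not given in the sources used here. What the authors deposited is a normalised signal, and 100% of values were whole multiples of the value of 1 read, within 0.01 read. Names came from GENCODE M21 (20500 of 20533 genes matched). The test was limma 3.58.1 (R 4.3.3) with an intensity trend on log2(value + 1), the pseudocount being 1, on genes with a mean of at least 1 (246 removed), two-sided, with 2 residual degrees of freedom. Folds and shares of water come from that log2 scale, which understates low genes. The alternatives were edgeR 4.0.16 and DESeq2 1.42.0 on recovered reads, other scalings, pseudocounts and filters, thinned reads, all 6 libraries, a replicate block, and each library left out.

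The 86 gene lists (2971 genes tested, 358 higher and 316 lower) and 19 marker lists were written from textbook knowledge, and the members and lists were chosen with earlier results of these data known. Named genes are, for each list, up to 3 higher and 3 lower with the largest log2 change among those that passed, had a mean of at least 20 and did not overlap; some genes this rule selects are not reported here. Genes outside that rule, for instance Cdhr2, Sqor, Per3, Lama3, Inhba and those of the chromosome runs, were chosen after their values were seen. The limma and edgeR tests were also run on simulated counts with known changes, which does not show that the calls above hold in these data. The labels do not say whether replicate numbers pair the libraries, and the correlation of deviations (0.088) cannot settle it.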

Additional observations from a re-analysis of the deposited data

How the results depend on the processing

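The counts over all genes were 1612 higher and 1477 lower. They were 1664 and 1319 by edgeR, 2129 and 1883 by DESeq2, and between 1391 and 1706 under the other pseudocounts and filters. Scaling by library size only gave 2207 and 897. Reads thinned to the shallowest library gave 0 and 0 (limma, smallest adjusted p = 0.0623, with 6059 genes at an unadjusted p under 0.05). All 6 libraries in 1 limma fit gave 0 and 0 as well (smallest adjusted p = 0.0576, 4662 genes). Leaving out 1 library gave 0 to 271 higher and 0 to 68 lower: 271 and 56 when water replicate 1 was left out, 264 and 68 when it was water replicate 2, and 0 for either DSS library (6247 and 4792 genes at an unadjusted p under 0.05). With the replicate block, where the labels do not say whether the numbers pair the libraries, the counts were 2754 and 2385. The cause was not tested. All 222 named genes that passed kept their direction wherever they were tested, and the calls of 222 were kept by edgeR, 211 under library size scaling, 47 and 59 without a water library, and none by the thinned, 6-library and DSS leave-one-out fits. Those lost with library size scaling were Cdhr2, Clec2h, Ech1, F2rl1, Hoxb9, Hoxd13, Htr4, Serpinb6a, Slc44a4, Sqor and Tef, and Ccn1, Hoxb4 and Vipr2 were lost without the filter. Of 86 list medians 13 changed sign with that scaling, 11 with thinned reads, 5 with the filter at 20, 2 to 7 with 1 library left out, and 0 by edgeR, DESeq2, other pseudocounts, no filter, 6 libraries or the block. In the shallowest library 1 read was worth 2.27, which limits genes of low value in water.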

Other observations

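Families not described above also held paired rises and falls. In the S100 list 3 of 15 genes were higher and 5 lower. Beside the granulocyte pair S100a8 and S100a9, S100a11, a calcium-binding protein of many cell types, had 1186 and 1242 in water, against 2603 and 4565 in DSS (2.84-fold), while S100a10, a partner of annexin 2, stood at 0.517 of water. Of 9 galectins, which bind galactose-bearing glycans, 3 were lower and 1 higher. Lgals3 had 30085 and 26877 in water, compared with 6284 and 6640 in DSS (0.227 of water, limma adjusted p = 0.00501), whereas Lgals1, a galectin of stroma and muscle, had 679 and 657 in water versus 1454 and 1277 in DSS. Of 29 tetraspanins 8 were lower and 5 higher, with Tspan1 at 0.219 of water and the leukocyte member Cd37 6.36-fold higher. The choline transporter-like genes Slc44a1, Slc44a3 and Slc44a4 stood at 0.430, 0.302 and 0.493 of water, and Slc44a2 was 2.21-fold higher.

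Lysosomal genes gave calls in both directions, with 2 of 39 higher and 4 lower. Lgmn, the protease legumain, had 817 and 796 in water, against 2391 and 3476 in DSS. For this gene the groups did not overlap, as the naming rule required. Among cathepsins and cystatins 5 of 21 were higher and 2 lower, with the collagen-cutting cathepsin gene Ctsk 3.52-fold higher and the epithelial Ctse at 0.158 of water. In serine and one-carbon metabolism Psat1 (2.62-fold), Mthfd2 (2.54-fold) and Mtr (2.18-fold) rose while Cbs, Cth and Ahcy fell, 3 of 22 each way. In pyrimidine synthesis Ctps, which makes CTP, had 103 and 198 in water versus 733 and 1216 in DSS (6.58-fold, limma adjusted p = 0.0121), and in polyamine metabolism Odc1 (1.65-fold) and Smox (2.51-fold) rose among 12 genes.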
